A study of Mus musculus with 6 samples.

Results

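Complement was examined as 33 genes of its components, receptors and regulators, chosen by symbol from the 40481 genes of the deposited count table, in which each symbol matched 1 gene. Liver RNA came from male C57BL/6 mice with Mttp f/f alleles and the Villin Cre transgene, a Cre activated by tamoxifen and driven by a promoter of the intestinal epithelium, so that hepatocytes keep Mttp in both groups. Mttp encodes the microsomal triglyceride transfer protein, which loads lipid onto chylomicrons in the gut. All mice ate a methionine/choline-deficient (MCD) diet, known to produce steatohepatitis, for 3 weeks. The diet began 3 weeks after tamoxifen (Mttp-IKO) or vehicle (control, named wild type in the labels) had been injected for 5 days, at 12 to 16 weeks of age, so the gene deletion and the drug cannot be told apart. Liver RNA of 3 to 4 separate mice was combined in each pool, with 3 control and 3 Mttp-IKO pools. The p-values measure the spread between pools of mice.

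Complement is a cascade of plasma proteases that tags microbes and dying cells. C1q bound to antibodies or cell debris starts it, as do mannose-binding lectins, other collectins and ficolins bound to sugars. Spontaneous turnover of C3 also starts it, and each route cleaves C3 and then C5. The small fragments released draw in leukocytes through the receptors C3ar1 and C5ar1, and the terminal components assemble into a pore. The liver is the main source of the plasma components. Hepatocytes make most of them, macrophages make C1q, properdin and ficolin A, and stellate cells are known as a source of Colec10 and Colec11. By these known sources, 21 of the genes were grouped as hepatocyte-made, 7 as macrophage-made and 2 as stellate-made. The 3 others were Cfd, an adipocyte product, and the widely expressed membrane regulators Cd55 and Cd59a.

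Promoter sequences are shown first for the genes on which the comparison turns: C1qb and C1qc, neighbours in the C1q cluster; Fcna, the ficolin A gene of macrophages; C3ar1 and Colec11, which passed the test; and C3, the most abundant. RefSeq start sites (GRCm38.p6) were matched for 24 of the 33 genes, C1qa not among them, and the 250 bases before the start are printed 5′ to 3′. Capitals mark, on either strand, GAGGAA (the core bound by PU.1, a factor of macrophage identity) in the first 4, TTCNNNGAA (the core of STAT sites) in Colec11 and TTNNGNAA (a core form of C/EBP sites) in C3. No matches of different motifs shared bases in these sequences. The counted genes (Ensembl) reach into the windows of C1qc, Fcna and C3ar1, up to 136893065, 25628030 and 122856161, so part of each window lies within the counted gene.
C1qb, chr4:136886201-136886450, minus strand: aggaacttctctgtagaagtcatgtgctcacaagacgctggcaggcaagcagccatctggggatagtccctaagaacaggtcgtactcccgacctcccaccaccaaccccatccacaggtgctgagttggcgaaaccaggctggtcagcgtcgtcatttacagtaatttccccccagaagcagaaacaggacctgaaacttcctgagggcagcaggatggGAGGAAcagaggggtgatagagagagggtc
C1qc, chr4:136892915-136893164, minus strand: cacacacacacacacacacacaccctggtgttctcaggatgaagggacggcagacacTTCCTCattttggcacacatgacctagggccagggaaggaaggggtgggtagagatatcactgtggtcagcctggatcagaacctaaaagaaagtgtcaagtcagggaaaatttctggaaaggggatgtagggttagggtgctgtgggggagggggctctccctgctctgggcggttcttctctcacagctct
Fcna, chr2:25627975-25628224, minus strand: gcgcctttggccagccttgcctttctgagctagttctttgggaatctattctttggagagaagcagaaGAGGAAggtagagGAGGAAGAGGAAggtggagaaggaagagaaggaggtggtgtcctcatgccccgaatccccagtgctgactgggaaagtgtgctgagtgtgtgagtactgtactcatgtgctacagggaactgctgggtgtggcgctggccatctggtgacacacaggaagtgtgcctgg
C3ar1, chr6:122856158-122856407, minus strand: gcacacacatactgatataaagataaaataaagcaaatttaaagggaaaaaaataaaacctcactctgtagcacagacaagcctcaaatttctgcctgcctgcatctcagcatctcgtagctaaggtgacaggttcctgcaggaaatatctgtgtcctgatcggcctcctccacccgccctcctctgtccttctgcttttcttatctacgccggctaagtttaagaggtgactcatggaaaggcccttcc
Colec11, chr12:28623331-28623580, minus strand: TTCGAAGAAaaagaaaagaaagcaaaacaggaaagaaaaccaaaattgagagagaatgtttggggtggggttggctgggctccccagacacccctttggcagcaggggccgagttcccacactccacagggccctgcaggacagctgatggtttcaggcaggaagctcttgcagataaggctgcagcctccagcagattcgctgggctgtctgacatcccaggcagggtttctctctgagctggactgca
C3, chr17:57228137-57228386, minus strand: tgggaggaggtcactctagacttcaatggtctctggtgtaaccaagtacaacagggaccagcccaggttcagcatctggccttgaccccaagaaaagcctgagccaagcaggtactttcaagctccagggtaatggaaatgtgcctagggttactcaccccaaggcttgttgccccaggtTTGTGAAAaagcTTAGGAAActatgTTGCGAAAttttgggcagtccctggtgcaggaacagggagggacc
GAGGAA was present in 3 of the 6 macrophage-made promoters matched and in 0 of the 14 hepatocyte-made ones, against 23.1% of 27025 promoters of the same length. Fcna holds 3 copies, C1qb and C1qc hold 1 each, and C3ar1 holds no match to any of the 3 motifs. TTNNGNAA was found in 7 of the 14 hepatocyte-made promoters, in 3 of the 6 macrophage-made ones and in 36.9% of all, with 4 matches in C3, one stretch being read on both strands. TTCNNNGAA was found in 3 of the 24 promoters and in 7.18% of all. These are matches of letters, not bound sites.

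The 6 pools held 25271585 to 36238734 reads on genes, of which 1.71% to 2.10% lay on the 33 complement genes. Levels are given in CPM, the reads of a gene per 1000000 reads of its pool, with library sizes scaled in edgeR by the trimmed mean of M values, TMM. SE is the standard error of a log2 fold change, here Mttp-IKO against control. Mttp, the targeted gene, overlapped between the groups in liver, at 90.4, 186 and 175 CPM against 145, 129 and 161 CPM (log2 fold change -0.054 with edgeR adjusted p = 0.927). In bulk liver RNA, fewer cells of a type and less RNA per cell cannot be told apart. Of 10 listed markers of recruited macrophages, all were lower in Mttp-IKO pools, 7 with an adjusted p under 0.05 (edgeR), and their summed level was 426 to 1282 CPM in control and 186 to 254 CPM in Mttp-IKO pools. Of 10 Kupffer cell markers, 6 were lower and 4 higher, with 1 call (Timd4, higher), and the sums overlapped (700.4 to 1082 against 539 to 998 CPM). Of 10 stellate cell markers 9 were lower and 3 were called, with sums of 894 to 1056 against 650 to 774 CPM. Of 10 hepatocyte markers 9 were found by name, 7 of them higher, 5 with an unadjusted p under 0.05 and 0 with an adjusted one (edgeR), and their sums did not overlap (74197 to 110395 against 133788 to 185169 CPM); Alb, albumin, held 40143 to 69059 and 84910 to 132408 CPM of these. Some pools stood apart. RNA of 8 striated muscle genes was highest in control pool 2, 924 CPM against 123 CPM in control pool 1 and 0.462 to 1.39 CPM elsewhere, and Mttp-IKO pool 3 was low in short mRNAs, which is taken up with the genes that it touches.

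All 33 genes passed the filter on low counts. Colec11 and C3ar1 had an adjusted p under 0.05 (edgeR), both lower in Mttp-IKO pools, and no gene was called higher (4 at an unadjusted p under 0.05, and 2 called with DESeq2, 0 with limma-voom). The 2 calls are 6.06% of the genes, against 4.06% of all 17154 genes tested (3.11% lower, 0.944% higher), so the count itself is near the background. At an unadjusted p under 0.05 there were 8 lower and 4 higher, against 23.1% of all genes, 13.5% lower and 9.56% higher. Of the 33, 16 were lower and 17 higher (49.5% of all genes were lower), with a median log2 fold change of 0.016 (0.0060 over all genes tested). Control and Mttp-IKO pools did not overlap in 11 genes (33.3%), 6 lower and 5 higher in Mttp-IKO pools, against 31.1% of all genes, 16.5% lower and 14.6% higher. By source, the medians differed in sign. The median log2 fold change was 0.20 over the 21 hepatocyte-made genes, of which 14 were higher (0.071 without Mttp-IKO pool 3, 0.081 without control pool 1 and 0.12 without control pool 3), and -0.67 over the 7 macrophage-made genes, of which 5 were lower (-0.44 without Mttp-IKO pool 3). The stellate-made pair had a median of -0.92. Scaling by total counts lowered the median of all genes to -0.18 and that of the hepatocyte-made genes to 0.019. The hepatocyte markers above, Alb among them, were also higher on average, and their part in the hepatocyte-made median was not tested. These medians describe the groups and were given no test.

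**Figure D1:**
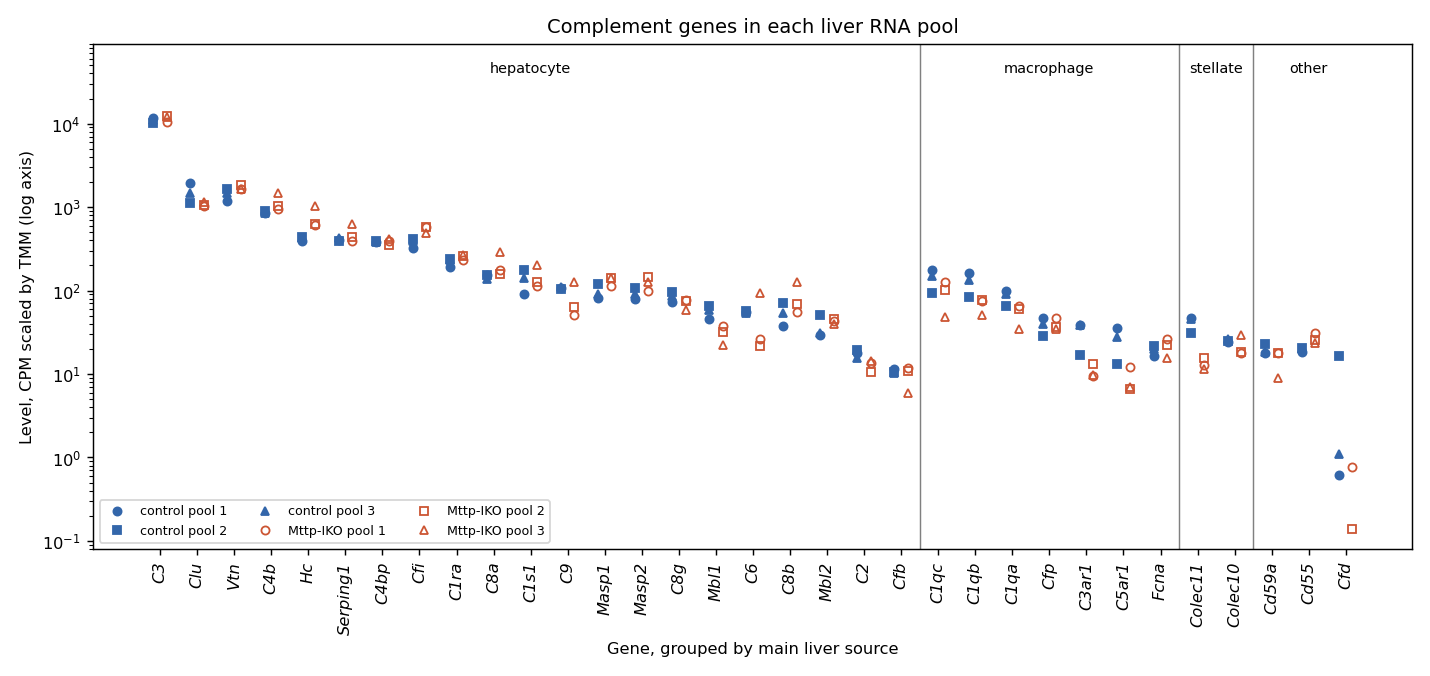
Level of each complement gene in CPM scaled by TMM (log axis) in the 3 control pools (filled) and the 3 Mttp-IKO pools (open), grouped by main liver source and ordered by control mean. C3, at 10039 to 12436 CPM, lies above every other gene, and Cfd, not drawn in Mttp-IKO pool 3 where it had 0 reads, is high in control pool 2 alone.

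**Figure D2:**
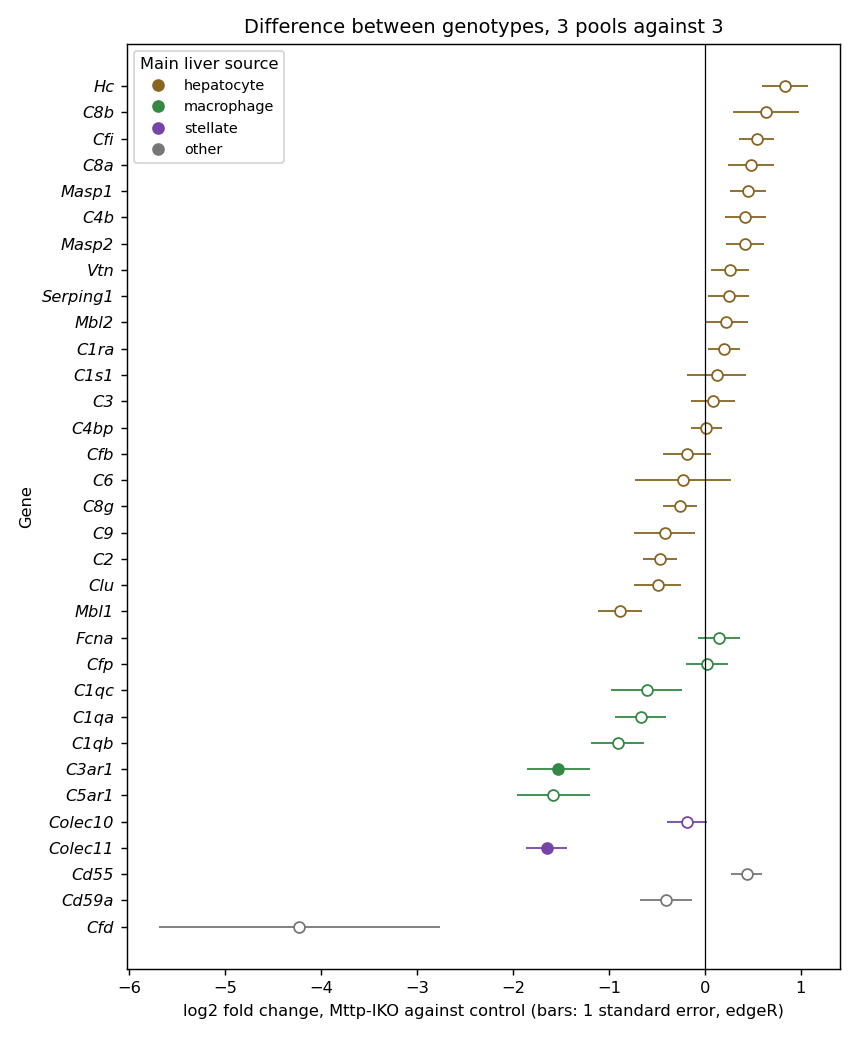
log2 fold change of each complement gene, Mttp-IKO against control, with 1 standard error (edgeR, 3 pools against 3), coloured by main liver source and filled where the adjusted p was under 0.05. Colec11 and C3ar1 are the filled points, C5ar1 lies beside them, and the hepatocyte-made genes run from -0.88 for Mbl1 to 0.84 for Hc.

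Of the 8 recognition molecules 6 were lower, and Colec11 alone passed the test. C1q is built of 3 chains whose genes lie side by side on the minus strand of chromosome 4 (GRCm38): C1qb at 136880129 to 136886187, C1qc at 136889804 to 136893065 and C1qa at 136895917 to 136898803. C1qa stood at 98.2, 65.2 and 91 CPM in the controls (pools 1 to 3) and 65.2, 59.9 and 34.9 CPM in the Mttp-IKO pools (1 to 3), where control pool 2 and Mttp-IKO pool 1 met (log2 fold change -0.67, SE 0.264, edgeR adjusted p = 0.183). For C1qb the levels were 163, 83.6 and 135 CPM against 74.6, 77.3 and 51.6 CPM, without overlap, and control pool 2 lay near the Mttp-IKO pools (log2 fold change -0.91, SE 0.273, edgeR adjusted p = 0.103). Without control pool 2 the adjusted p of C1qb was 0.0427 (edgeR), and with all pools it was 0.0278 with DESeq2. C1qc overlapped, with 177, 93.6 and 148 CPM against 125, 102 and 47.6 CPM (log2 fold change -0.61, SE 0.367, edgeR adjusted p = 0.36). In all 3 chains Mttp-IKO pool 3 was the lowest of the 6 pools. Ratios between chains overlapped: C1qa stood at 0.602 to 0.779 of C1qb in control and 0.677 to 0.874 in Mttp-IKO pools, and C1qb at 0.893 to 0.925 of C1qc in control and 0.597 to 1.08 in Mttp-IKO pools.

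The chains were also set against macrophage markers of the same pool. Csf1r, the receptor for macrophage colony-stimulating factor, was itself at 139 to 243 against 103 to 142 CPM (log2 fold change -0.62 with edgeR adjusted p = 0.174). Relative to Csf1r, C1qa was at 0.404, 0.467 and 0.445 in the controls and at 0.46, 0.438 and 0.34 in the Mttp-IKO pools (exact permutation test, two-sided p = 0.6). C1qc overlapped as well (0.671 to 0.725 against 0.464 to 0.883, exact p = 1.0). C1qb did not overlap, at 0.6 to 0.671 in control and 0.503 to 0.565 in Mttp-IKO pools (exact p = 0.1, the smallest that 3 pools against 3 can give). Adgre1, the F4/80 antigen, was lower in every Mttp-IKO pool, at 31.6 to 63.5 against 21.7 to 31.5 CPM (log2 fold change -0.98 with edgeR adjusted p = 0.0891). Relative to Adgre1 none of the 3 chains separated the genotypes, with exact p-values of 0.4, 1.0 and 0.4 for C1qa, C1qb and C1qc. Relative to Clec4f, a lectin of resident Kupffer cells that was itself at 80.1 to 90.2 against 66.3 to 85.8 CPM, C1qb was at 1.93, 0.927 and 1.69 in the controls and 0.869, 1.08 and 0.778 in the Mttp-IKO pools. There control pool 2 fell among the Mttp-IKO pools (exact p = 0.2). There were 25 ratios to cell type markers, and after adjustment over them the smallest p was 0.25.

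Fcna encodes ficolin A, which macrophages secrete. Its levels were 16.6, 21.7 and 19.7 CPM in the controls and 26.6, 22.3 and 15.5 CPM in the Mttp-IKO pools, which overlapped (log2 fold change 0.15, SE 0.221, edgeR adjusted p = 0.724), and its log2 fold change was -0.035 without Mttp-IKO pool 1 and -0.024 with total-count scaling. Against Adgre1 its ratio was higher in every Mttp-IKO pool (0.697 to 1.03 against 0.262 to 0.686 in control, exact p = 0.1). The ratios overlapped against Clec4f (0.233 to 0.313 against 0.197 to 0.246 in control, exact p = 0.3) and against Csf1r (0.151 to 0.187 against 0.0684 to 0.155 in control, exact p = 0.2).

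The mannose-binding lectins, hepatocyte products that recognise microbial sugars, had opposite signs, and neither passed the edgeR test. Mbl1 stood at 45, 64.7 and 59 CPM in the controls and at 37.3, 31.7 and 22.3 CPM in the Mttp-IKO pools, all below the controls (log2 fold change -0.88, SE 0.226, edgeR adjusted p = 0.0711). Mbl1 passed with DESeq2 (adjusted p = 0.0134) and with total counts (0.0363, edgeR). Its paralog Mbl2 overlapped, with 29, 50.6 and 31.1 CPM against 43.3, 45.8 and 40.2 CPM (log2 fold change 0.22, SE 0.225, edgeR adjusted p = 0.589). Mbl1 exceeded Mbl2 in each control pool, with ratios of 1.55, 1.28 and 1.90, and lay below it in each Mttp-IKO pool, with ratios of 0.863, 0.692 and 0.556. The mean log2 ratio differed by -1.17 (Mttp-IKO minus control, exact permutation test, two-sided p = 0.1, adjusted p = 0.22 over 11 ratios between complement genes). Their exons are of similar total length, 923 and 1101 nt.

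Colec10 and Colec11 are the stellate-made pair. Colec11, whose product collectin 11 binds sugars and MASP proteases (chromosome 12, 28594173 to 28623290), had 1910, 1128 and 1479 reads in the controls and 393, 453 and 275 reads in the Mttp-IKO pools. In CPM that is 47.4, 31.3 and 46.2 against 12.7, 15.6 and 11.6, so each Mttp-IKO pool lay below each control pool. Colec11 fell 3.14-fold, with the smallest adjusted p of the 33 genes (log2 fold change -1.65, SE 0.211, edgeR adjusted p = 0.0173). With 1 pool left out its adjusted p ran from 0.00822 to 0.0913, and it passed 0.05 without control pool 2 or Mttp-IKO pool 3 but not without any of the others. Colec10, whose product forms complexes with collectin 11 (chromosome 15, 54410774 to 54466358), stood at 24.3, 24.6 and 26 CPM in the controls and 18.1, 18.3 and 29.3 CPM in the Mttp-IKO pools. Pools 1 and 2 lay below the controls and pool 3 above them (log2 fold change -0.19, SE 0.211, edgeR adjusted p = 0.632). The ratio of Colec10 to Colec11 was 0.512, 0.785 and 0.563 in the controls and 1.43, 1.18 and 2.54 in the Mttp-IKO pools (exact p = 0.1). Their exons differ in total length, 4587 nt for Colec10 and 1383 nt for Colec11, and Mttp-IKO pool 3 was low in short mRNAs.

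Stellate cell markers of the same pool gave no single scale for Colec10 and Colec11. Lrat, the enzyme that stores vitamin A in stellate cells, fell itself, with 46.1 to 82.3 CPM in control pools against 17 to 22.4 CPM (log2 fold change -1.71 with edgeR adjusted p = 0.0182, and 0.00683 to 0.0998 with 1 pool left out). Relative to Lrat, Colec11 overlapped between genotypes (0.576 to 0.678 against 0.526 to 0.915, exact p = 1.0) and Colec10 was higher in Mttp-IKO pools (0.295 to 0.532 against 0.808 to 1.34, exact p = 0.1). Reln, a secreted protein of stellate cells, had a log2 fold change of -0.43 (adjusted p = 0.235, edgeR). Relative to Reln, Colec11 was lower in Mttp-IKO pools (0.128 to 0.158 against 0.0451 to 0.0828, exact p = 0.1) and Colec10 overlapped (0.0811 to 0.1 against 0.0976 to 0.115, exact p = 0.3). The part of stellate cell number in the level of Colec11 was not tested.

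None of the 7 proteases that follow recognition passed the test (2 lower and 1 higher at an unadjusted p under 0.05, edgeR, and 0 called by DESeq2, which gave no adjusted p for Cfd, or by limma-voom). C1ra, which activates C1s, was at 189.9 to 240.2 against 233 to 264 CPM (log2 fold change 0.20 with edgeR adjusted p = 0.516). C1s1, its substrate and neighbour on chromosome 6, was at 90.5, 175 and 139.9 CPM against 112, 125 and 205 CPM (log2 fold change 0.12 with edgeR adjusted p = 0.844), and its sign turned without control pool 1 or Mttp-IKO pool 3 and with total-count scaling. Masp1 and Masp2, the proteases of the lectin pathway, were both higher on average, with overlapping pools. Masp1 stood at 82, 119 and 89.8 CPM in the controls and 115, 140.1 and 142 CPM in the Mttp-IKO pools (log2 fold change 0.45, SE 0.191, edgeR adjusted p = 0.208). Masp2 stood at 80.2, 107 and 90.5 against 99.9, 145 and 126 CPM (log2 fold change 0.42 with edgeR adjusted p = 0.246), and 54.9% of its exonic bases overlap Tardbp on the opposite strand. C2, the protease of the classical and lectin C3 convertase, was lower in every Mttp-IKO pool, at 17.9, 19.6 and 15.5 against 13.5, 10.6 and 14.3 CPM (log2 fold change -0.47, SE 0.181, edgeR adjusted p = 0.177). Factor B (Cfb), its counterpart in the alternative pathway, was at 10.4 to 11.4 CPM in control pools and, in Mttp-IKO pools, at 11.7, 10.8 and 6.01 CPM, with pool 3 alone below the controls (log2 fold change -0.18 with edgeR adjusted p = 0.699), and its sign turned without pool 3. The predicted gene Gm20547 covers 79.5% of the exonic bases of Cfb and 42.8% of those of C2 on the same strand of chromosome 17, and held 0 reads in every pool. As only unambiguous reads were counted, the levels of Cfb and C2 may leave out reads from these bases.

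Cfd, or adipsin, cleaves factor B and is known as an adipocyte product. It had 25, 592 and 35 reads in the controls and 24, 4 and 0 reads in the Mttp-IKO pools, the 0 allowing a level of up to 0.119 CPM. Control pool 2 thus held most of its reads, 16.4 CPM against 0.62 and 1.09 CPM in the other controls (log2 fold change -4.22, SE 1.46, edgeR adjusted p = 0.14). Without that pool the log2 fold change was -1.43 (adjusted p = 0.502, edgeR). The same pool held 55 reads of Adipoq, 67 of Plin1 and 33 of Retn, against 0 to 7 reads of each elsewhere, and the most striated muscle RNA. Of the 6 adipocyte markers listed, 5 had 0 reads in at least 1 pool. The summed level of the 6 was 9.32 CPM in control pool 2 and 1.96 to 7.55 CPM in the other pools. Adrb3 made up most of the sum in the other pools, at 1.86 to 7.35 CPM, and was at 4.86 CPM in control pool 2. The part of adipose or muscle RNA in the Cfd value was not tested.

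C3, the hub of the cascade (chromosome 17, 57203970 to 57228136), held 1.02% to 1.31% of all reads and 57.9% to 62.5% of the reads of the 33 genes. Its level was 11733, 10039 and 10912 CPM in the controls and 10426, 12436 and 11843 CPM in the Mttp-IKO pools, which overlapped (log2 fold change 0.087, SE 0.227, edgeR adjusted p = 0.853), and its sign turned with total-count scaling. Per kilobase of exon, C3 was at 2118 CPM in control pools (mean of 3), followed by Vtn at 705 and Clu at 439, and Cfb was the lowest at 3.82. As Gm20547 shares 79.5% of the exonic bases of Cfb, reads there may be left out, and its rank is uncertain. On the same scale C1qb was at 117 and Colec11 at 30.1. C4b, cleaved by C1s and MASP2, was higher in every Mttp-IKO pool, at 842, 888 and 839 against 962, 1023 and 1456 CPM (log2 fold change 0.42, SE 0.215, edgeR adjusted p = 0.282). C4b and C4a are near-identical copies on chromosome 17, as are C1ra and C1rb and C1s1 and C1s2 on chromosome 6, and reads aligned to more than one place were left out, so the levels of C4b, C1ra and C1s1 are uncertain. Properdin (Cfp), which stabilises the alternative C3 convertase and is made by myeloid cells, was at 47.5, 28.4 and 39.3 against 46.3, 36.3 and 34.4 CPM (log2 fold change 0.022 with edgeR adjusted p = 0.964). Its sign turned with upper-quartile or total-count scaling, without a count filter, and without control pool 2 or Mttp-IKO pool 1. Its ratio to Csf1r was higher in every Mttp-IKO pool (0.266 to 0.336 against 0.192 to 0.204 in control, exact p = 0.1), as was that to Adgre1 (exact p = 0.1), whereas that to Clec4f overlapped (0.51 to 0.54 against 0.315 to 0.562 in control, exact p = 0.6).

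Of the 6 terminal components, which build the pore, 3 were higher and 3 lower on average, and none passed the test (1 higher at an unadjusted p under 0.05, edgeR, and Hc by DESeq2). Hc, which encodes C5 (chromosome 2, 34983331 to 35061438), stood at 397, 442 and 422 CPM in the controls and at 606, 625 and 1020 CPM in the Mttp-IKO pools. Every Mttp-IKO pool exceeded the controls, and with all pools the log2 fold change was the highest of the 33 genes (0.84, SE 0.24, edgeR adjusted p = 0.0932). With DESeq2 the adjusted p of Hc was 0.0129. Without Mttp-IKO pool 3 its log2 fold change was 0.55 (adjusted p = 0.0519, edgeR), below the 0.61 of Cfi. C6, which joins C5b, stood at 54.6, 57.2 and 54.6 CPM in the controls and at 26.5, 21.6 and 94.4 CPM in the Mttp-IKO pools. Pools 1 and 2 lay below the controls and pool 3 above, and the standard error was the largest of the 33 genes after that of Cfd (log2 fold change -0.23, SE 0.501, edgeR adjusted p = 0.825). Its sign turned without Mttp-IKO pool 1 or pool 2. C9, the subunit that closes the pore, had the same order, with 107, 106 and 112 CPM against 51, 63.9 and 128 CPM (log2 fold change -0.42, SE 0.318, edgeR adjusted p = 0.469). Without Mttp-IKO pool 3 both passed the threshold and were lower, C6 with a log2 fold change of -1.21 (adjusted p = 0.0113, edgeR) and C9 with -0.91 (adjusted p = 0.0234, edgeR). The ratios of C6 and C9 to Hc of the same pool were lower in every Mttp-IKO pool. In pool 3 C6 and C9 themselves lay above the controls, so the low ratios there rest on Hc at 1020 CPM. As Hc was higher in every Mttp-IKO pool, these ratios do not show a fall of C6 or C9 themselves. The ratio of C6 to Hc was 0.138, 0.129 and 0.129 in the controls and 0.0437, 0.0345 and 0.0925 in the Mttp-IKO pools. That of C9 to Hc was 0.269, 0.239 and 0.265 against 0.0842, 0.102 and 0.126 (exact p = 0.1 for each, adjusted p = 0.22 over 11 ratios between complement genes).

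The 3 chains of C8 come from separate genes. C8a and C8b lie side by side on chromosome 4, and C8a was at 152, 155 and 138 CPM against 175, 159 and 286 CPM (log2 fold change 0.48, SE 0.24, edgeR adjusted p = 0.276). The levels of C8b were 37.5, 71.1 and 53.4 CPM against 55.6, 68.8 and 128 CPM (log2 fold change 0.64, SE 0.346, edgeR adjusted p = 0.309). C8g, a lipocalin on chromosome 2, was at 72, 95.3 and 85.3 CPM against 77.5, 75.6 and 57.9 CPM (log2 fold change -0.26 with edgeR adjusted p = 0.427). In all 3 genes Mttp-IKO pool 3 stood farthest from the controls, above them for C8a and C8b and below them for C8g. Without that pool the log2 fold change was 0.17 for C8a, 0.21 for C8b and -0.13 for C8g.

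Mttp-IKO pool 3 differed from pools 1 and 2 with the length of the gene. Its level divided by the mean of pools 1 and 2 had a median of 0.562 over 1497 protein-coding genes of under 1500 nt of exon, 0.841 over 3869 genes of 1500 to under 3000 nt and 1.10 over 8832 longer genes. The complement genes followed this order, with medians of 0.663 (8 genes), 0.91 (12 genes) and 1.19 (13 genes). In all 8 of those under 1500 nt (Mbl1, Cfd, C1qa, C1qb, Mbl2, Fcna, Colec11 and C8g) pool 3 was the lowest of the Mttp-IKO pools. C6 at 3.93, C9 at 2.23 and C8b at 2.06 had the highest ratios, and C1qc at 0.42 the lowest after Cfd at 0. With the trend of each library with gene length removed, Colec11 (log2 fold change -1.51, adjusted p = 0.0164, edgeR) and C3ar1 (-1.50, adjusted p = 0.0434) passed the threshold and Mbl1 passed it as well (-0.76, adjusted p = 0.0463). C1qa (-0.56), C1qb (-0.78) and C1qc (-0.54) did not.

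**Figure D3:**
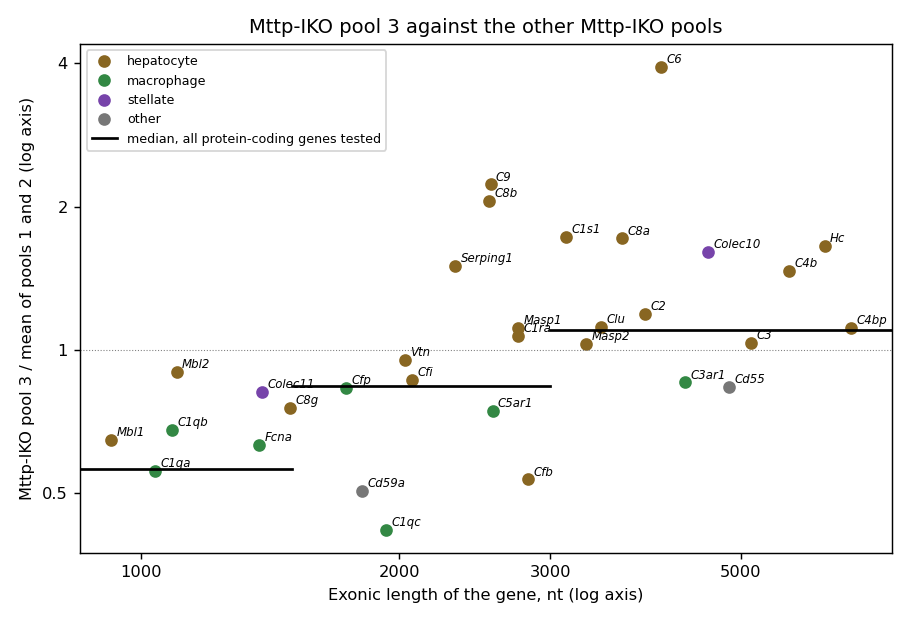
Level in Mttp-IKO pool 3 divided by the mean of Mttp-IKO pools 1 and 2 against exonic length (both axes log), 1 point per complement gene coloured by source, with lines at the median of all protein-coding genes tested in each length class (0.562, 0.841 and 1.10). The genes under 1500 nt lie below 1 and C6 stands out at 3.93. Cfd, at 0 reads in pool 3, is not drawn.

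Of the 5 soluble regulators, which keep the cascade in check, 4 were higher on average, and none passed the test (1 higher at an unadjusted p under 0.05, edgeR, and Cfi by DESeq2). Factor I (Cfi), the protease that inactivates C3b and C4b, stood at 322, 414 and 393 CPM in the controls and 571, 576 and 496 CPM in the Mttp-IKO pools, all above the controls (log2 fold change 0.54, SE 0.18, edgeR adjusted p = 0.13; adjusted p = 0.0308 with DESeq2). C4bp, its cofactor on C4b, had the log2 fold change nearest 0, at 383 to 389.6 against 355 to 418 CPM (log2 fold change 0.016, SE 0.161, edgeR adjusted p = 0.965), and its sign turned under 9 alternatives. Serping1, the C1 inhibitor, was at 402, 389 and 428 against 391, 438 and 623 CPM (log2 fold change 0.25 with edgeR adjusted p = 0.518). Vitronectin (Vtn), which blocks pore assembly, was at 1200, 1636 and 1456 against 1629, 1857 and 1664 CPM (log2 fold change 0.26 with edgeR adjusted p = 0.471). Clusterin (Clu), another inhibitor of the pore, was the one with a negative sign, at 1952, 1109 and 1467 against 1017, 1047 and 1155 CPM, where control pool 2 lay among the Mttp-IKO pools (log2 fold change -0.49, SE 0.242, edgeR adjusted p = 0.268). Of the membrane regulators, Cd55, which dismantles convertases, was higher in every Mttp-IKO pool, at 18.6, 20.4 and 20.2 against 31, 25.3 and 23.6 CPM (log2 fold change 0.44, SE 0.159, edgeR adjusted p = 0.157). Cd59a, which blocks C9, was at 17.7 to 23.2 CPM in control pools, with Mttp-IKO pools 1 and 2 within that range and pool 3 below it at 9.07 CPM (log2 fold change -0.40 with edgeR adjusted p = 0.415).

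The receptors of the released fragments had the most negative log2 fold changes of the macrophage-made genes. C3ar1, the receptor of C3a (chromosome 6, 122847138 to 122856161), had 1542, 602 and 1238 reads in the controls and 295, 386 and 232 reads in the Mttp-IKO pools. The levels were 38.2, 16.7 and 38.7 CPM against 9.52, 13.3 and 9.75 CPM, so that control pool 2 lay just above Mttp-IKO pool 2. C3ar1 fell 2.88-fold (log2 fold change -1.52, SE 0.326, edgeR adjusted p = 0.0455), a call that limma-voom did not make (adjusted p = 0.0757). With 1 pool left out its adjusted p ran from 0.00944 to 0.165 and passed 0.05 without control pool 2 but not without any of the other 5. C5ar1, the receptor of C5a (chromosome 7, 16246743 to 16259540), stood at 35.5, 13.3 and 28 CPM in the controls and 12, 6.7 and 6.97 CPM in the Mttp-IKO pools. It did not pass the threshold (log2 fold change -1.58, SE 0.382, edgeR adjusted p = 0.0622), but did so with DESeq2 (adjusted p = 0.0016), with total counts (0.0473, edgeR) and with no count filter (0.0271, edgeR). With the replicate number as a block C5ar1 passed (adjusted p = 0.0335) and C3ar1 did not (adjusted p = 0.0798, edgeR).

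Both receptors were lower relative to Csf1r of the same pool, C3ar1 at 0.12 to 0.189 in control against 0.0672 to 0.0969 and C5ar1 at 0.0953 to 0.146 against 0.0489 to 0.0847 (exact p = 0.1 for each). Relative to Adgre1, C5ar1 was lower (0.421 to 0.559 against 0.308 to 0.382, exact p = 0.1) and C3ar1 overlapped (0.529 to 0.725 against 0.303 to 0.61, exact p = 0.3). Relative to Clec4f, C5ar1 was again lower (0.147 to 0.42 against 0.0939 to 0.14, exact p = 0.1) and C3ar1 overlapped (0.185 to 0.483 against 0.111 to 0.186, exact p = 0.2). The recruited macrophage markers were also lower in Mttp-IKO pools, with sums of 1240, 426 and 1282 CPM in the controls and 186, 254 and 226 CPM in the Mttp-IKO pools. Control pool 2 was the lowest control for the markers and for both receptors. Among the Mttp-IKO pools C3ar1 had the order of these sums (9.52, 13.3 and 9.75 CPM) and C5ar1 did not (12, 6.7 and 6.97 CPM). The part of recruited macrophages in the difference was not tested.

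**Figure D4:**
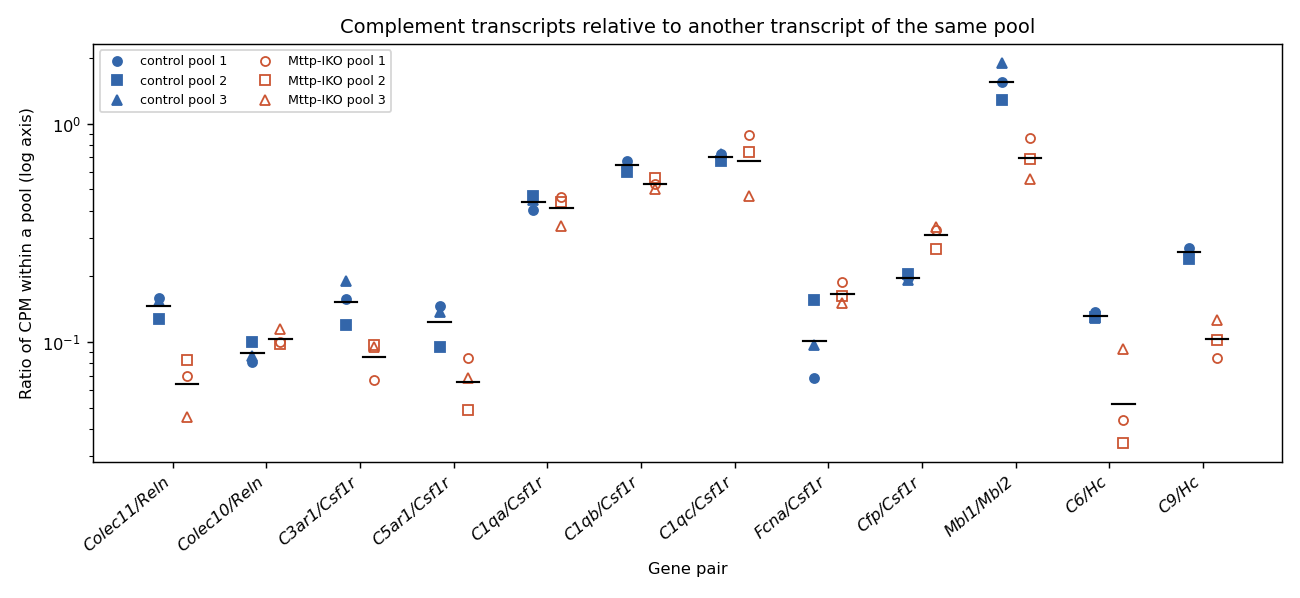
Ratio of CPM within a pool (log axis) for 12 pairs of genes in the 3 control pools (filled) and 3 Mttp-IKO pools (open), with the geometric mean of each genotype as a line. Lower in every Mttp-IKO pool are the ratios of Colec11 to Reln and of C1qb, C3ar1 and C5ar1 to Csf1r. So are the ratios of Mbl1 to Mbl2 and of C6 and C9 to Hc. The ratios of C1qa and C1qc to Csf1r overlap, and that of Cfp to Csf1r is higher.

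Leaving out 1 pool at a time changed which of the 33 genes passed. Without control pool 1, control pool 3, Mttp-IKO pool 1 or Mttp-IKO pool 2, 0 passed an adjusted p of 0.05 (edgeR), with 5 to 8 lower and 1 to 6 higher at an unadjusted p under 0.05. Over all genes the calls then were 23, 22, 55 and 0, with 2468 to 4429 genes at an unadjusted p under 0.05. Without control pool 2 there were 4 (C1qb, Colec11, C3ar1 and C5ar1, all lower), beside 887 over all genes, 766 of them lower. Without Mttp-IKO pool 3 there were 3 (C6, C9 and Colec11, all lower), beside 867 over all genes, 562 of them lower. With both of these pools left out, a setting chosen after seeing the data, there were 7 lower (C1qa, C1qb, C6, C9, Colec11, C3ar1 and C5ar1) and 3 higher (Hc, Cfi and Mbl2). Over all 17308 genes tested in that setting there were 2144 calls, 1529 lower and 615 higher. The log2 fold change ran from -1.84 to -1.56 for Colec11 and from -1.85 to -1.37 for C3ar1 with 1 pool left out.

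Among 30 other genes of the complement pathway 27 were tested, of which 12 were lower and 15 higher in Mttp-IKO pools, with a median log2 fold change of 0.11. The 2 that passed the threshold were lower, 7.41% of those tested against 4.06% of all genes (3.11% lower). Both encode subunits of leukocyte receptors for inactivated C3b. Itgax, the alpha chain of complement receptor 4 and one of the recruited macrophage markers above, stood at 52.7, 18.2 and 50.3 CPM in the controls and 3.29, 7.83 and 6.51 CPM in the Mttp-IKO pools (log2 fold change -2.78, SE 0.465, edgeR adjusted p = 0.0247). Itgb2, its beta chain, was at 102, 42.6 and 93.1 CPM against 24.8, 24.5 and 20.2 CPM (log2 fold change -1.77, SE 0.312, edgeR adjusted p = 0.0292). Neither passed without control pool 1, control pool 3, Mttp-IKO pool 1 or Mttp-IKO pool 2. Itgam and Vsig4, also genes of such receptors and in the list, did not pass with all pools. Itgam had a log2 fold change of -1.25 (adjusted p = 0.0696 with edgeR and 0.00567 with DESeq2). That of Vsig4 was 0.12 (edgeR adjusted p = 0.777), with overlapping pools. C7, the terminal component that follows C6, was lower in every Mttp-IKO pool, at 2.81 to 3.77 against 1.51 to 2.27 CPM (log2 fold change -0.84 with edgeR adjusted p = 0.123). The largest positive log2 fold change was that of Apcs, serum amyloid P component, a hepatocyte-made pentraxin named here after its values were seen. It was higher in every Mttp-IKO pool, at 164, 167 and 179 CPM against 608, 343 and 225 CPM (log2 fold change 1.21, SE 0.333, edgeR adjusted p = 0.0857), and passed with DESeq2 (adjusted p = 0.00631), with the length trend removed (0.0368) and without Mttp-IKO pool 3 (0.0247).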

How the data were processed

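RNA-Seq of liver RNA pools was analysed for 3 control and 3 Mttp-IKO pools. Per the labels and the article, ribosomal RNA was depleted (KAPA RiboErase), reads were aligned with STAR 2.5.1a to the Ensembl release 76 assembly (GRCm38), and uniquely aligned unambiguous reads per gene were counted with featureCounts 1.4.6-p5. The authors deposited these counts without normalization, along with CPM and RPKM, which in all 6 sample files follow from the counts. Whether strand was used is not given in the sources used here. The table of all pools held 40481 genes after 276 repeated lines were dropped.

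Genes were filtered with filterByExpr, scaled by TMM and compared by the quasi-likelihood test of edgeR 4.0.16 (R 4.3.3) with Benjamini-Hochberg adjustment over 17154 genes. The method was checked on simulated counts. Ratios within pools were compared by exact two-sided permutation tests. Members, gene lists and ratios were chosen with earlier results of these data known. The genes named are the 33 members, the targeted Mttp, C7, pathway genes under an adjusted p of 0.05 and the markers used as denominators. Timd4, Apcs, Itgam, Vsig4, Plin1, Retn, Adrb3, Tardbp and Gm20547 were named after their values were seen. One other pathway gene that was chosen by name is not reported here. A count of 0 allows up to 3 reads (0.0828 to 0.119 CPM), for counting error only. Alternatives were other scalings, DESeq2 1.42.0, limma-voom (limma 3.58.1), robust dispersion, other filters, a loess trend with gene length, a replicate block and leaving out each pool.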

Additional observations from a re-analysis of the deposited data

How the results depend on the processing

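Colec11 and C3ar1 kept their sign under every alternative run, and 8 of the 33 complement genes changed sign in at least 1, each with an adjusted p over 0.05 there. The causes were not tested. The 696 calls over all genes became 1026 with total counts (913 lower, against 534), 1984 with the DESeq2 test, 427 with limma-voom, 0 to 887 with 1 pool left out and 2144 without both control pool 2 and Mttp-IKO pool 3, a setting chosen after seeing the data. The 2 complement genes called lower became 4 with total counts, 5 with the DESeq2 test, 1 with limma-voom, 0 to 4 with 1 pool left out and 7 without both pools. The 0 called higher became 2 with the DESeq2 test and 3 without both pools. Of the other pathway genes, the 2 called lower became 4 without both pools and 0 to 3 with 1 pool left out, and the 0 called higher became 1 with the DESeq2 test, with the length trend removed, with the replicate block and the length trend removed, without both pools and in 1 of the fits with 1 pool left out (range 0 to 1). Total counts moved the median log2 fold change of all genes to -0.18, that of the hepatocyte-made genes to 0.019 and that of the stellate-made genes to -1.11; with 1 pool left out the hepatocyte-made median ran from 0.071 (without Mttp-IKO pool 3) to 0.25, the macrophage-made one from -0.90 to -0.44 and the stellate-made one from -1.03 to -0.84.

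With total counts C1s1 (-0.045), C3 (-0.10), C4bp (-0.16), Cfp (-0.16) and Fcna (-0.024) turned. With upper-quartile scaling C4bp (-0.013) and Cfp (-0.0052) turned, and with no count filter C4bp (-0.011) and Cfp (-0.0023). C4bp turned with the length trend removed (-0.014). Without both pools C4bp (-0.038), Cfb (0.035), Cfp (-0.080) and Serping1 (-0.012) turned. With 1 pool left out the log2 fold change ran from -0.19 to 0.33 for C1s1, from -0.035 to 0.080 for C4bp, from -1.21 to 0.12 for C6, from -0.36 to 0.058 for Cfb, from -0.17 to 0.19 for Cfp and from -0.035 to 0.34 for Fcna.

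The deviations of same-numbered pools (1 to 3) correlated at 0.14, 0.11 and 0.0062 across genes, and those of differently numbered pools at -0.12 to 0.020. Pools 1 and 2 thus stood above that range and pool 3 lay within it, which does not settle whether the pools are paired. The labels do not say that a number is shared between genotypes, so the main fit took no pairs. The replicate block gave 582 calls, with Colec11 and C5ar1 the complement genes called; with the length trend removed as well it gave 815, and C4bp turned (-0.016). At this depth a gene with 0 reads may lie at up to 0.0828 to 0.119 CPM.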
